A study of Homo sapiens with 9 samples.

Results

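The endoplasmic reticulum (ER) folding machinery and the sensors that watch over it were examined in RNA recovered with the CCR4-NOT deadenylase complex. The set held 10 genes chosen by symbol, 10 of the 30956 genes in the deposited table, with 1 row each. Of these, 7 encode chaperones and folding enzymes of the ER lumen or membrane (HSPA5, HSP90B1, CALR, CANX, PDIA4, PDIA6 and HYOU1). The remaining 3 encode unfolded-protein sensors and transcription factors (XBP1, ATF6 and ERN1). All 10 passed the filter on low values, a normalized count of at least 10 in at least 3 libraries, together with 16674 genes in all.

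The samples came from HEK293T, an established human embryonic kidney cell line. In the RNA immunoprecipitation (RIP), RNA was recovered with V5-tagged CNOT7, a nuclease subunit of CCR4-NOT that carried the D40A substitution, which impairs catalysis. Per the labels there were 3 RIP libraries and 6 libraries of input RNA, of which 3 came from cells kept with 3 µg/mL of doxycycline for 24 h and 3 from cells kept without it. The RNA was labelled cytoplasmic in every library. Only 3 inputs had a column in the deposited table, numbered 1 to 3. Their names fit either kind of input, so the labels do not give the doxycycline condition of these columns. The labels also leave unsaid whether the cells of the RIP libraries were kept with doxycycline. No library was labelled as a control precipitate of untagged cells.

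Proteins that enter the secretory pathway fold in the ER with the help of chaperones, lectins and disulfide isomerases. When unfolded proteins build up, membrane sensors of the unfolded protein response signal to the nucleus. ERN1 (IRE1) splices the mRNA of XBP1, and ATF6 is released by cleavage in the Golgi. Both routes yield transcription factors that bind ER stress response elements in the promoters of chaperone genes. CCR4-NOT shortens the poly(A) tails of mRNAs, and an RNA that is higher in the RIP than in input was recovered more than a typical mRNA was.

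Libraries held 37140622 to 40764899 reads in genes for RIP and 37290120 to 38918356 for input. RIP replicate 2 stood apart, with 14786 genes without a read against 6720 and 6398 in the others. Over 12370 genes with a mean of at least 100, its log2 values correlated at 0.92 with either other RIP library (Pearson). RIP replicates 1 and 3 correlated at 0.98, as did the pairs of input libraries. Each of the 10 genes had at least 1249 reads in every library. Mitochondrially encoded RNA made up 18.6% to 26.6% of reads in the input libraries and 0.931% to 1.12% in RIP. CNOT1, the scaffold of the complex, had 144350 ± 1397 normalized counts in RIP and 35315 ± 3995 in input (SD, n = 3 each). The bait's gene CNOT7 had 86982 ± 11495 in RIP and 24800 ± 498 in input (SD, n = 3 each), and gene counts do not separate endogenous from tagged CNOT7. All 8 of the marker genes listed for HEK293 cells had a mean of at least 10 in either group. Of 7 markers of other cell types, 4 had no row in the table, ALB and PECAM1 had means under 10 in either group, and COL1A1 stood at 397 in RIP and 469 in input.

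The promoters show what most of these genes share. In the 300 bases around each annotated start (250 before and 50 after, RefSeq, GRCh38.p14), the ER stress response element (ERSE), which is CCAAT, any 9 bases and CCACG, was searched on both strands. It was found for 6 of the 10 genes, 5 chaperones and XBP1, and in 27 of all 35116 promoter windows (0.0769%), which belong to 25 of 27305 genes. The related ERSE-II, which is ATTGG, any single base and CCACG, was found at HYOU1 only among the 10 genes, and in 0.0541% of all windows. The unfolded protein response element (UPRE), TGACGTGG, was also found at HYOU1 only among them, where it overlaps an ERSE-II, and in 0.729% of all windows. A match is a description of these letters, not a sign that a factor binds there. The matches are printed with the fixed letters in capitals, since they carry the feature that joins these chaperone genes to XBP1.
HSPA5 ERSE, chr9:125241391-125241409, minus strand: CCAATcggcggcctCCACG
HSP90B1 ERSE, chr12:103930216-103930234, plus strand: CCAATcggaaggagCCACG
HSP90B1 ERSE, chr12:103930321-103930339, minus strand: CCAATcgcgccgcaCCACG
CALR ERSE, chr19:12938384-12938402, minus strand: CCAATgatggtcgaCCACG
CANX ERSE, chr5:179698778-179698796, plus strand: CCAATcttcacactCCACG
PDIA6 ERSE, chr2:10812853-10812871, minus strand: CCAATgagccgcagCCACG
XBP1 ERSE, chr22:28800603-28800621, minus strand: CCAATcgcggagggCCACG
HYOU1 ERSE-II, chr11:119057274-119057284, plus strand: ATTGGaCCACG
HYOU1 ERSE-II, chr11:119057380-119057390, plus strand: ATTGGaCCACG

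The element at HSPA5 starts 66 bases before the gene's start and the element at XBP1 starts 52 bases before it, both in the direction of the gene. Elements at HSP90B1 start 194 and 89 bases before the start, the second of them on the opposite strand. The spacer differs between all 7 ERSE matches, so that they share no more than the 10 fixed letters as a group. CANX had 4 annotated windows, of which 3 hold the same match, and PDIA6 had 2, of which 1 holds a match. For both genes the windows with a match surround annotated starts inside the gene's span, not its outermost start. No ERSE, ERSE-II or UPRE letters were present in the windows of PDIA4, ATF6 and ERN1, and these 3 held no ERSE with 1 mismatch either. Whole windows are shown for HSPA5, the leading chaperone, for XBP1, which shares its element, and for ERN1, which has none, each read along the gene's own (minus) strand with matched letters in capitals.
HSPA5, chr9:125241294-125241593: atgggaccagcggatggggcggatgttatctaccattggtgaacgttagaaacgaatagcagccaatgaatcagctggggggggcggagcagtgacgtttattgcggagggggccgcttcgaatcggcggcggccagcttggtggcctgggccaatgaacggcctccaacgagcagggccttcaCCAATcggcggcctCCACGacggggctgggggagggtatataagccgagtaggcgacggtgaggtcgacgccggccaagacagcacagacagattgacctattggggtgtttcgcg
XBP1, chr22:28800520-28800819: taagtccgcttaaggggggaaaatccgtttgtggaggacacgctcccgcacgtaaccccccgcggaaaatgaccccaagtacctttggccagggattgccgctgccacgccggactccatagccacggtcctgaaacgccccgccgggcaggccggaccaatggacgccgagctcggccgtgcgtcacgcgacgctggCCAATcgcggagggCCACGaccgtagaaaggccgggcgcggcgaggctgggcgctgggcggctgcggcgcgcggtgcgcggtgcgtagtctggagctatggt
ERN1, chr17:64130095-64130394: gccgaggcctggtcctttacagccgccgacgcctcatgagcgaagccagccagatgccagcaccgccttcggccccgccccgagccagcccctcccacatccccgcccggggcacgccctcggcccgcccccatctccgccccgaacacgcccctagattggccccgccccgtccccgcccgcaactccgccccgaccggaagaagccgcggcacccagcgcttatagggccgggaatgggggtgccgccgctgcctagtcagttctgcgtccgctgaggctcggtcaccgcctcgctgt

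**Figure D1:**
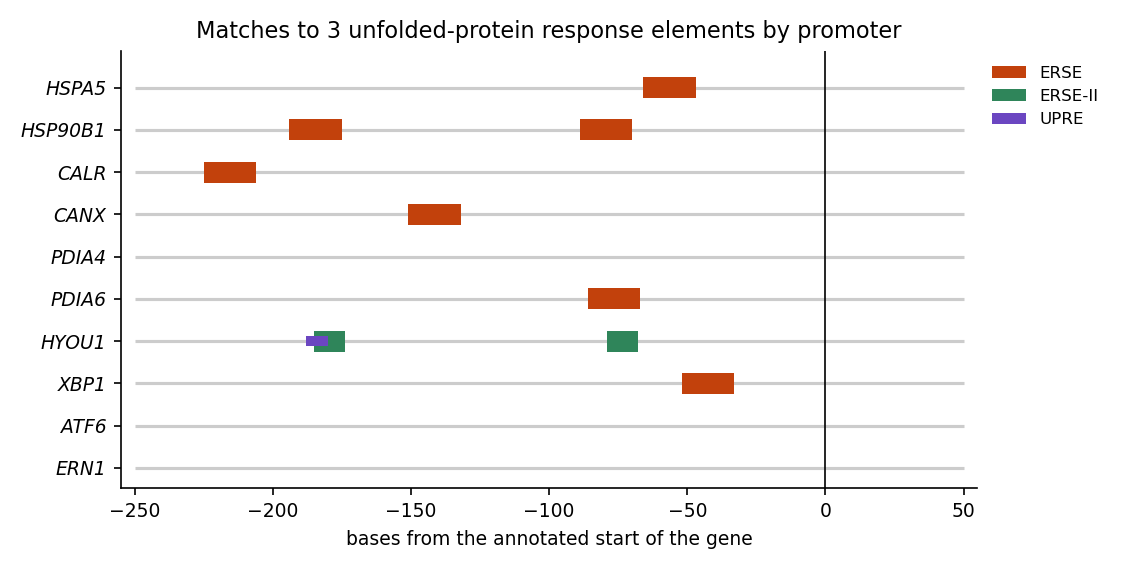
Matches to ERSE (red), ERSE-II (green) and UPRE (purple) in the 300 bases around an annotated start of each gene. Distance in bases is on the horizontal axis, with 1 gene per line. ERSE matches lie in 6 of the 10 promoters, HYOU1 holds ERSE-II and UPRE matches, and PDIA4, ATF6 and ERN1 hold none of these. CANX and PDIA6 are drawn from the first of their windows with a match, which surround starts inside the gene's span.

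RIP was compared with input to ask which of these mRNAs were recovered with CCR4-NOT. All 7 chaperone and folding enzyme genes were lower in RIP, at 34.0% to 42.3% of their input means, whereas XBP1 was higher at 192% of its input mean. ERN1 was higher by 1.38-fold and ATF6 lower by 1.38-fold. On the log2(normalized count + 1) scale, tested with limma over all 16674 genes, 8 of the 10 genes were lower and 2 higher at an adjusted p under 0.05. Of all tested genes, 21.3% were lower and 22.5% higher by the same rule. Among the 7238 genes with a mean normalized count of at least 1000, a range that holds all 10, 33.6% were lower and 33.1% higher. In all 10 genes the RIP and input libraries did not overlap, 8 below and 2 above. Over all tested genes RIP lay wholly below input for 27.5% and wholly above for 27.3%. The authors' deposited table has the same 8 genes lower and 2 higher, where 19.9% of its tested genes are lower and 20.6% higher, with log2 folds from -1.56 for PDIA6 to 0.94 for XBP1.

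The 2 chaperones of the HSP70 and HSP90 families come first. HSPA5 (BiP, ENSG00000044574, chromosome 9, 125234853 to 125241343) is the luminal HSP70 that binds nascent chains and holds the sensors inactive. Its normalized counts were 3570, 3568 and 4152 in RIP and 9002, 8840 and 8817 in input. Every RIP library lay below every input library, and the input values were nearly equal. The difference was -1.24 on the log2 scale (SE 0.11, limma adjusted p = 6.18e-06), a 2.37-fold lower level. HSP90B1 (GRP94, ENSG00000166598, chromosome 12, 103930410 to 103947926) is the luminal HSP90, which folds integrins and Toll-like receptors. Its normalized counts were 4727, 4126 and 3684 in RIP and 13590, 10808 and 9983 in input. Input 1 was the highest of them, and the groups did not overlap. HSP90B1 differed by -1.45 on the log2 scale (SE 0.14, limma adjusted p = 1.07e-05).

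HYOU1 (GRP170, ENSG00000149428, chromosome 11, 119044188 to 119057205) is the large HSP70-related protein that exchanges nucleotide on BiP. It had normalized counts of 2227, 1995 and 2388 in RIP against 5606, 6005 and 6501 in input. The lowest input was above the highest RIP library by more than the range within either group. On the log2 scale HYOU1 differed by -1.46 (SE 0.12, limma adjusted p = 3.97e-06), close to the value of HSP90B1.

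The lectin chaperones calreticulin and calnexin retain glycoproteins until they are folded. CALR (ENSG00000179218, chromosome 19, 12938609 to 12944489), the soluble lectin, had normalized counts of 5139, 5506 and 5705 in RIP and of 13960, 14826 and 15486 in input. CANX (ENSG00000127022, chromosome 5, 179678656 to 179731641), its membrane-bound relative, had 16682, 18207 and 14440 in RIP and 46656, 41917 and 39968 in input. In neither gene did the groups overlap. The log2 difference was -1.44 for CALR (SE 0.11, limma adjusted p = 1.99e-06). For CANX it was -1.39 (SE 0.13, limma adjusted p = 6.8e-06), so that the soluble and the membrane-bound lectin differed by less than either SE.

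Among the disulfide isomerases, which form and reshuffle disulfide bonds, PDIA6 (ENSG00000143870, chromosome 2, 10783391 to 10837712) had the lowest fold of the 10 genes. Its normalized counts were 3224, 3445 and 3796 in RIP and 9643, 10562 and 10545 in input. That is a difference of -1.56 on the log2 scale (SE 0.11, limma adjusted p = 1.7e-06), or 2.94-fold. PDIA4 (ENSG00000155660, chromosome 7, 149003051 to 149028505) had 2741, 3545 and 3447 in RIP and 8564, 9006 and 8424 in input. RIP replicate 1 was the lowest for PDIA4, and the groups were far apart. PDIA4 differed by -1.43 on the log2 scale (SE 0.13, limma adjusted p = 5.42e-06).

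The 7 chaperone folds formed a narrow band, from -1.56 to -1.24 on the log2 scale, with SEs of 0.11 to 0.14. Neighbours in this order differed by less than their SEs, except HSPA5, which lay above CANX by slightly more than either SE. Differences between members were not tested. The median of the band was -1.44 against -0.050 for all tested genes. HSPA5, the highest of the band, ranked 2545th from the lowest of all 16674 folds and PDIA6 ranked 1738th. A chaperone fold of this size was therefore not rare: 10.7% of all tested genes were lower by at least 2-fold at an adjusted p (limma) under 0.05.

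**Figure D2:**
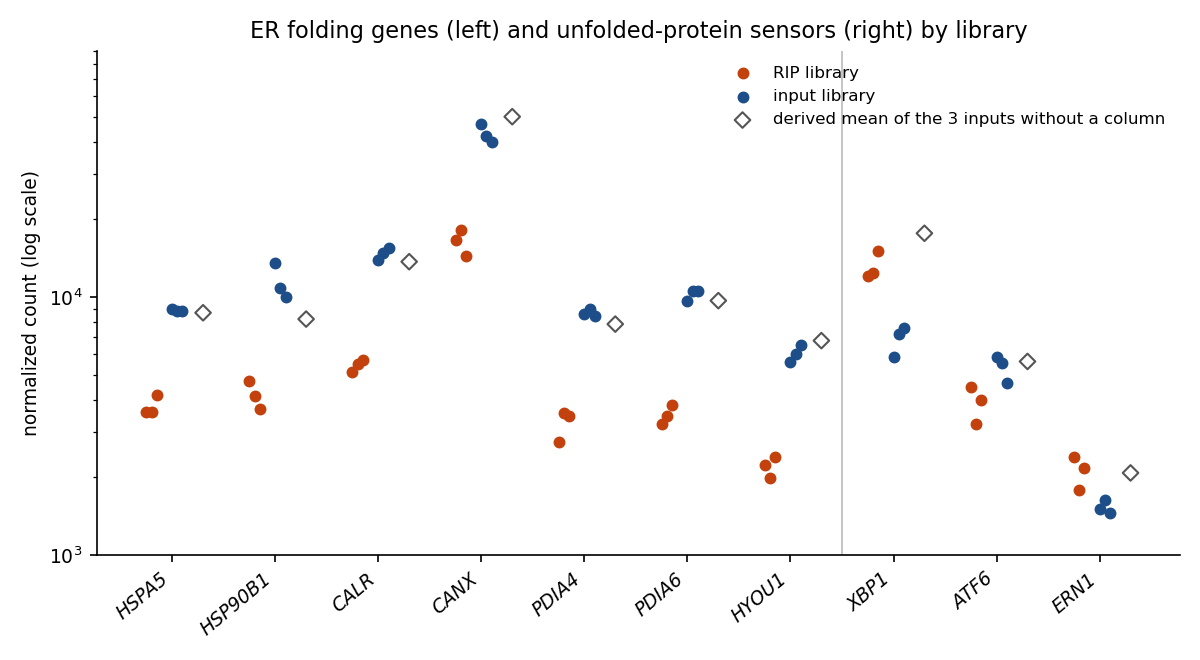
Normalized counts (log axis) of the 10 genes in each RIP library (red points) and each input library with a column (blue points), with the derived mean of the 3 inputs without a column as open diamonds. RIP lies below input for the 7 chaperones and ATF6 and above it for XBP1 and ERN1, while the diamond of XBP1, at 17648, lies above all RIP libraries.

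XBP1 (ENSG00000100219, chromosome 22, 28794560 to 28800569), the transcription factor whose mRNA ERN1 splices, differed most from the chaperones. Its normalized counts were 12074, 12411 and 15072 in RIP and 5827, 7212 and 7577 in input. The lowest RIP library stood well above the highest input, and RIP replicate 3 was the highest. XBP1 was higher by 0.94 on the log2 scale (SE 0.14, limma adjusted p = 0.000163), a 1.92-fold difference. Gene counts do not separate the spliced from the unspliced form.

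That direction of XBP1 depended on which inputs were used. The deposited mean runs over 9 libraries, so the mean of the 3 inputs without a column follows by subtraction, without an SD. For XBP1 this derived mean was 17648 normalized counts, 2.57 times the 6872 ± 924 (SD, n = 3) of the inputs with columns. Against it the RIP mean of 13186 ± 1642 (SD, n = 3) gives a log2 fold of -0.42, and against all 6 inputs together 0.11. The inputs with and without columns thus put XBP1 on opposite sides of RIP. Of 16631 genes with reads in both sets, 3.66% had a log2 ratio of inputs with columns over the derived mean as low as the -1.36 of XBP1. The median of that ratio was -0.0057. The bait's gene CNOT7 also differed between the inputs, with 24800 normalized counts in those with columns and a derived mean of 4240 in the others. For 98.8% of genes the log2 ratio was at or below the 2.55 of CNOT7. The part of CNOT7 in the XBP1 difference, and that of doxycycline, was not tested.

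ERN1 (IRE1, ENSG00000178607, chromosome 17, 64039142 to 64130144), the kinase and endoribonuclease among the sensors, had normalized counts of 2399, 1779 and 2177 in RIP and 1502, 1630 and 1452 in input. The groups did not overlap, but RIP replicate 2 lay close to the highest input. ERN1 differed by 0.46 on the log2 scale (SE 0.15, limma adjusted p = 0.0257). The call was lost without RIP replicate 1 or 3 and without input 1, 2 or 3, with adjusted p values (limma) up to 0.0944. The derived mean of the inputs without a column was 2079, which leaves a log2 fold of 0.027.

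ATF6 (ENSG00000118217, chromosome 1, 161766320 to 161964070), the membrane-bound transcription factor, had normalized counts of 4456, 3227 and 3970 in RIP and 5865, 5550 and 4624 in input. The highest RIP library was just under the lowest input. ATF6 differed by -0.47 on the log2 scale (SE 0.15, limma adjusted p = 0.0223), and by 0.028 under scaling by total counts. The call was also lost without RIP replicate 2 and without input 1 or 2 (adjusted p up to 0.0908 by limma), and when scaled by the total without mitochondrial and small RNA genes (-0.34, adjusted p = 0.0854 by limma). The derived mean of the other inputs, 5622, gives -0.53.

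**Figure D3:**
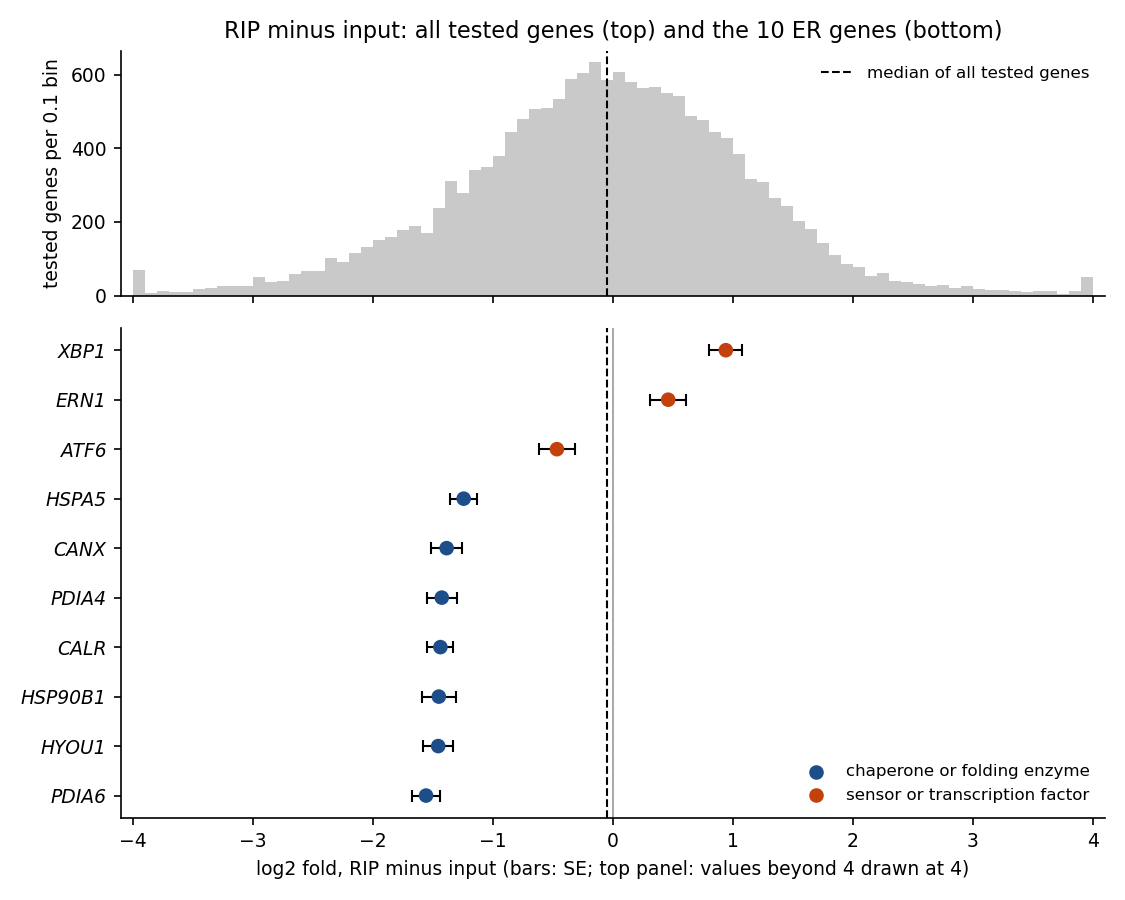
Top, number of tested genes in each bin of 0.1 of the log2 fold of RIP minus input. Bottom, the log2 fold of each of the 10 genes with its SE (bars), chaperones in blue and sensors in red, with the median of all tested genes as a dashed line: the chaperones lie between -1.56 and -1.24, apart from the sensors at -0.47, 0.46 and 0.94.

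Chaperones and sensors were set against each other within each library, which removes the library's scaling. The mean log2 level of the 7 chaperones minus that of the 3 sensors was 1.70, 1.56 and 1.67 in the inputs. In RIP it was -0.22, 0.11 and -0.16. The groups were far apart, by -1.73 on the log2 scale between their means, with SDs of 0.18 in RIP and 0.070 in input (n = 3 each). No p is given, since the genes were chosen with earlier results known. Against the derived mean of the other inputs the same contrast was -1.05, and against all 6 inputs -1.34. Between single genes, XBP1 minus HSPA5 was -0.38 ± 0.22 in input and 1.81 ± 0.051 in RIP on the log2 scale (SD, n = 3 each), a shift of 2.19. Among the sensors, XBP1 minus ATF6 shifted by 1.41 and XBP1 minus ERN1 by 0.48. Over the derived mean of the other inputs these 3 shifts were 0.79, 0.11 and -0.45.

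For the chaperones, the choice of inputs changed no direction. Over the derived mean of the inputs without a column, their log2 folds ranged from -1.62 for HYOU1 to -0.97 for HSP90B1, whose derived mean of 8206 was lower than its input mean of 11460. CANX, at 49962, and HYOU1, at 6769, had derived means above those of the inputs with columns.

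**Figure D4:**
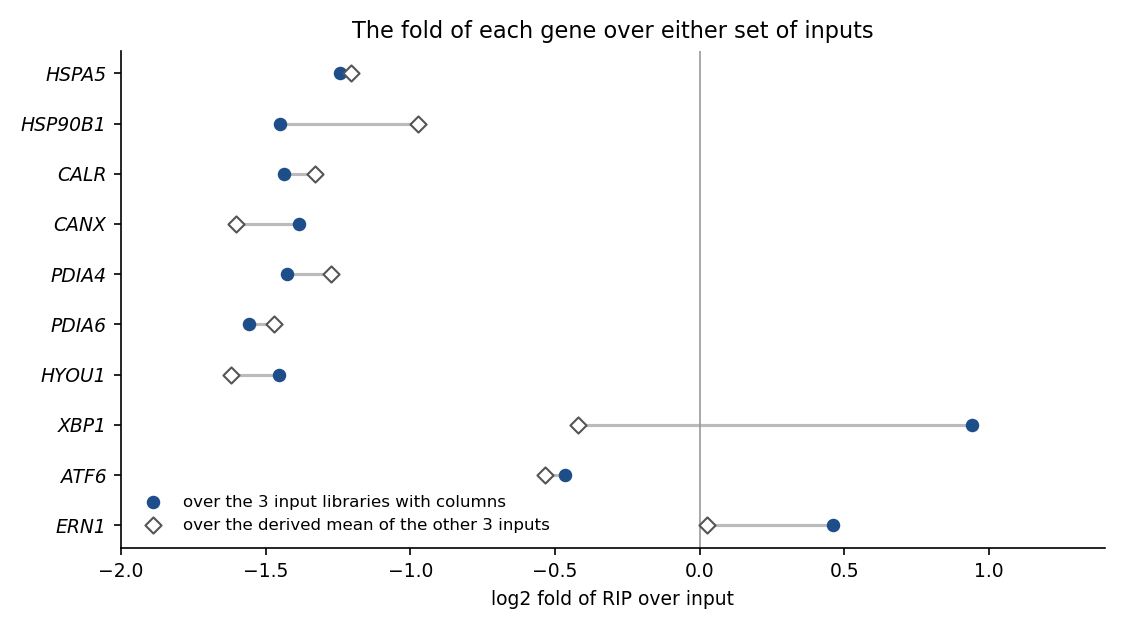
Log2 fold of RIP over the 3 inputs with columns (filled points) and over the derived mean of the other 3 inputs (open diamonds) for each of the 10 genes. The 7 chaperones and ATF6 keep their side of 0, ERN1 moves to 0.027 and XBP1 crosses from 0.94 to -0.42.

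The wider secretory pathway was described by lists of other genes, whose counts stand against 21.3% lower and 22.5% higher over all tested genes, or 1647 and 6142 of 16811 genes under total-count scaling. Among tested genes with a mean of at least 1000, 33.6% were lower and 33.1% higher, and the lists hold genes above and below that mean. No test compared the lists. Of 38 tested ER folding enzymes and chaperones outside the 7, 27 were lower and 1 higher, with a median log2 fold of -0.98. Under total-count scaling 18 were lower and 3 higher, and over the derived mean of the other inputs the median was -0.84. GANAB and PRKCSH, the subunits of glucosidase II, which trims glycans for the lectin cycle, had -1.69 (SE 0.12) and -1.65 (SE 0.13; limma adjusted p = 1.34e-06 and 3.05e-06). DNAJB9, a J-domain cochaperone of BiP that restrains ERN1, was the member that was higher. It had 2352 ± 213 normalized counts in RIP and 625 ± 11.6 in input (SD, n = 3 each), a log2 difference of 1.91, and 1.43 over the derived mean of the other inputs.

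Of 29 genes for the translocon, signal peptidase and oligosaccharyltransferase, which bring nascent chains into the ER and process them, 27 were lower and 0 higher by limma, also at an unadjusted p under 0.05. The count of higher genes was 0 by edgeR, in the DESeq2 refit and in the authors' deposited table too. Under total-count scaling 20 were lower. Their median was -1.16, or -1.44 over the derived mean of the other inputs. SSR4 of the translocon-associated complex and OST4 of the oligosaccharyltransferase had log2 differences of -2.31 and -2.32. In ER-associated degradation, which removes misfolded proteins, 10 of 26 genes were lower and 4 higher, and the median was -0.10. Under total-count scaling the balance turned, with 6 lower and 12 higher and a median of 0.39. Without mitochondrial and small RNA genes 9 were lower and 7 higher, and over the derived mean of the other inputs the median was -0.30. The lectin OS9 and the extraction factor UFD1 stood at -1.76 and -1.62. HERPUD1, a stress-induced membrane component, had 1.39 (0.38 over the derived mean of the other inputs), and the lectin ERLEC1 had 0.93.

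Of 19 other tested sensors and factors of the response, 7 were higher and 2 lower, with a median log2 fold of 0.36. Total-count scaling gave 13 higher and 1 lower and a median of 0.86. Over the derived mean of the other inputs the median was 0.11, with 12 genes above 0 and 7 below. PPP1R15A and PPP1R15B, regulatory subunits that reverse eIF2alpha phosphorylation, had 1.82 (SE 0.16) and 1.45 (SE 0.10; limma adjusted p = 5.37e-06 and 1.59e-06). Over the derived mean of the other inputs they had 0.18 and 1.06. ATF6B, the paralog of ATF6, had -0.95, and NFYC, a subunit of the factor that binds the CCAAT part of the ERSE, had -0.50.

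Cytosolic HSP70 and HSP90 chaperones served as the closest comparison outside the ER. Of 17 tested, 10 were lower and 3 higher, with a median of -0.52, against -1.44 for the 7 ER chaperones. Under total-count scaling 4 were lower and 3 higher, and the medians were -0.025 and -0.94. When scaled by the total without mitochondrial and small RNA genes, 8 were lower and 3 higher, and the medians were -0.39 and -1.31. Over the derived mean of the other inputs the cytosolic median was 0.045 and that of the ER chaperones -1.33, so the cytosolic list was not lower against those inputs. HSP90AA1, the inducible cytosolic HSP90, had -1.21 over the inputs with columns and 0.31 over the derived mean of the others, whereas its ER counterpart HSP90B1 had -1.45 and -0.97. The cochaperones ST13 and BAG3 had -1.14 and 0.72. HSPA1B had 0.65, and 3.79 over the derived mean of the other inputs (809 against 7172 normalized counts in the inputs with columns), but reads shared with its near-identical copy HSPA1A cannot be assigned.

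**Figure D5:**
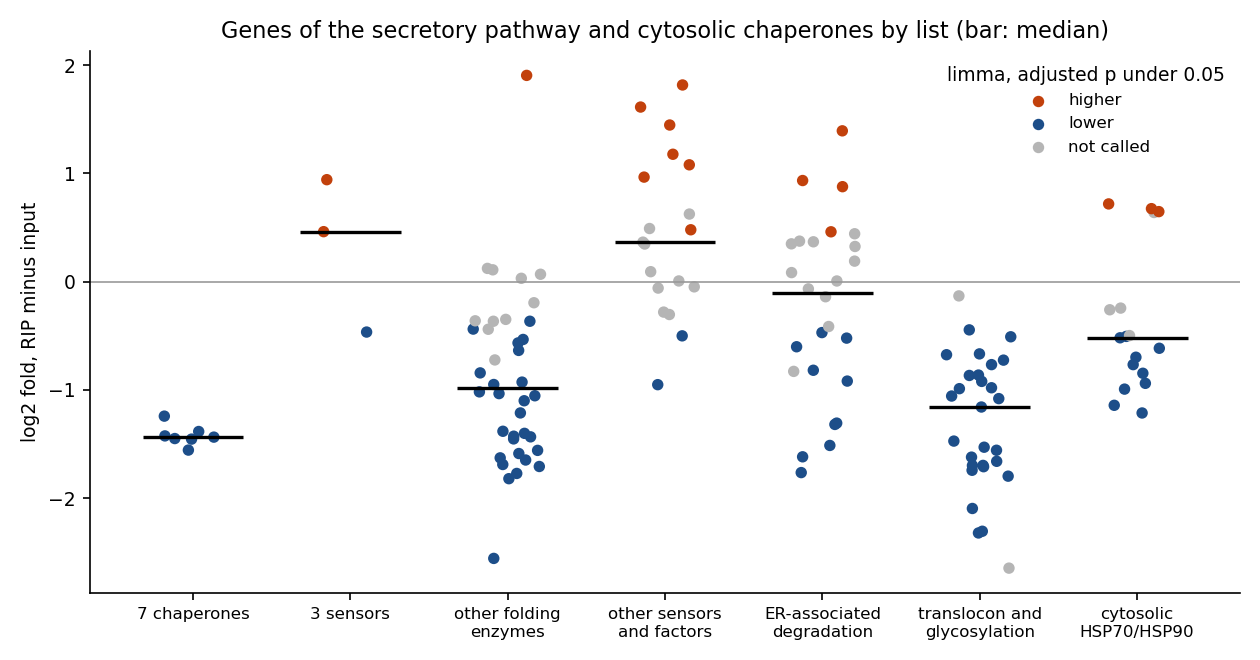
Log2 fold of RIP minus input for every tested gene of the 7 chaperones, the 3 sensors and 5 further lists, coloured by the call at an adjusted p under 0.05 (limma), with the median of each list as a bar. The 7 chaperones lie within the range of the other folding enzymes, whose median is -0.98, and the other sensors and factors have a median of 0.36.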

How the data were processed

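The deposited table held, per the file headers, the values of 3 RIP and 3 input libraries, a signal that the authors made by dividing gene counts by 1 size factor per library. All values (100%) were whole multiples of their column's smallest value within 0.01 of a read. The authors' log2 fold, Wald score (fold over SE), p-value and adjusted p-value came with it, made with STAR, featureCounts and DESeq2 on GRCh38, per the submitters' processing notes, without versions. The annotation and strand setting are not stated there. The deposited fold matched the log2 ratio of RIP and input column means within 0.0026 for 11785 genes with means above 100. The deposited signal mean covers 9 libraries: low sums left after subtracting 6 columns were whole reads of 3 libraries in 100% of 3434 genes (within 0.002).

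Log2(value + 1) was fitted over all genes with limma 3.58.1 (trend, R 4.3.3) after the filter, with Benjamini-Hochberg adjustment. On simulated counts of this comparison (16918 genes) it recovered 99% of genes changed by 1 on the log2 scale and 36% changed by 0.5. The simulation changed 100 genes of each size, all with a mean of at least 100, and gave every gene the same dispersion. Many more genes were called in the data, so these shares need not hold there. Alternatives were edgeR 4.0.16, DESeq2 1.42.0, the authors' result, other scalings, filters and pseudocounts, and leaving out libraries. The members and lists were chosen with earlier results of these data known. Named genes are all 10 members, CNOT1, CNOT7 and, in each further list, up to 2 called genes per direction with the smallest p. Replicates of a group differed beyond sampling noise (chi-square per degree of freedom 29.9 to 82.8), and the labels do not call them separate cultures, so the p-values reflect library-to-library spread, which may be technical. Reads are not independent molecules. Fold changes on this scale understate those of low genes.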

Additional observations from a re-analysis of the deposited data

How the results depend on the processing

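The 7 chaperones and XBP1 kept their direction and an adjusted p under 0.05 in all 120 of their tested alternatives (15 each, adjusted p at most 0.0012), which all use the inputs with columns. Total-count scaling raised the median of all folds by 0.48 and gave 6142 genes higher and 1647 lower, 78.9% higher of those called against 51.4%. It moved the chaperone median to -0.94 and the sensor median to 0.96, ATF6 to 0.028, and the genes called higher in the other ER lists to 28. Scaling without mitochondrial and small RNA genes gave 59.3% higher and a chaperone median of -1.31. Against the mean of all 6 inputs the chaperone and sensor medians were -1.38 and 0.11 and their contrast -1.34. Against the derived mean of the 3 inputs without a column, an alternative chosen after seeing the data, they were -1.33 and -0.42, the contrast was -1.05 and XBP1 had -0.42; the cause was not tested. Leaving out each library gave 1 to 2 members called higher, 7 to 8 lower, a chaperone median of -1.47 to -1.40, a sensor median of 0.37 to 0.58 and a contrast of -1.84 to -1.67. Allowing 1 mismatch in the ERSE gave 7 members in place of 6.

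Replicate numbers were taken from the column names. Deviations of same-numbered RIP and input libraries correlated at 0.25, 0.0025 and 0.24 over 12370 genes. Those of differently numbered libraries correlated at -0.26 to 0.026. Deviations were taken from the mean of each group, so these correlations depend on each other. They do not settle whether equal numbers mark pairs. The main fit did not treat the numbers as pairs. With the replicate block 4041 genes were higher and 3906 lower, and the same 10 members were called. Protein features were not computed here.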

Other observations

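Besides the 6 members, 19 genes had an ERSE in a promoter window, and 10 of these 19 were tested. Of the 10, 3 were lower, 2 higher and 5 not called, with a median log2 fold of -0.33. Over all tested genes 21.3% were lower and 22.5% higher. Of the 6 members, which were chosen with earlier results known, 5 were lower and 1 higher. No test compared these counts. The following were chosen after their values were seen. FICD, the enzyme that AMPylates BiP, was higher by 1.91 on the log2 scale (SE 0.21, limma adjusted p = 2.21e-05), while BiP itself (HSPA5) had -1.24. ALG12, a mannosyltransferase of glycan assembly, had -0.67 (SE 0.18). The translocon-associated SERP1 had -0.23 and ERO1B, an oxidase of the ER, had 0.068, and neither was called. An ERSE in the promoter thus occurred in genes on either side of input.

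Other mRNAs of the response stood on either side when the inputs with columns were set against the derived mean of the other inputs, and those given here were chosen after their values were seen. DDIT3 (CHOP), a factor induced by prolonged stress, had a mean of 146 in the former and 374 in the latter, and 3.67% of genes had a ratio as low. HERPUD1 had 1541 and 3159 (6.61% of genes as low). The BiP cochaperones SDF2L1, with 461 and 337, and DNAJB11, with 540 and 357, went the other way, while ATF4 had 27581 and 26381. TRIB3, with 1668 and 7057, and PPP1R15A, with 670 and 2097, were lower in the inputs with columns by more than DDIT3. CREB3L1, with 480 and 109, was higher in them. The median log2 ratio of inputs with columns over the derived mean was -0.36 for the 19 other tested sensors and factors. It was -0.054 for the 38 other folding enzymes and -0.0057 over all genes. The derived means have no SD, and the difference was not tested.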
